A study of Oryza sativa with 12 samples.

Results

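Transcripts of the aerial parts of 12-day-old rice plants of 2 OsC3'H1-knockout lines, a and b, were compared with those of wild-type plants of the same age. The loci described were chosen by 2 conditions: the authors' Cuffdiff test had been done in both comparisons, and at least 1 of the 3 groups stood at 5 FPKM or more (fragments counted per kilobase of transcript and scaled to sequencing depth). This gave 17489 of the 37672 merged loci of the authors' deposited table. A merged locus is a stretch to which Cufflinks assigned overlapping transcripts. Of the members, 16252 held 1 annotated gene, 893 held several and 344 held none. The member nearest above the minimum peaked at 5.001 FPKM and the nearest locus below it at 4.998 FPKM.

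All plants were Oryza sativa cultivar Nipponbare. The knockout plants of lines a and b were of generation T3 and 12 days old, the wild-type plants used here were 12 days old, and 5-day-old wild type is quoted in a few places for context. Each group had 3 biological replicates, out of 12 samples in 4 groups, but the table gives 1 FPKM value per group, so no spread between replicates can be shown and the depth of each library is unknown. Seedlings grew in closed sterile boxes on agar with diluted Murashige and Skoog medium, and only the wild-type controls are described as moved, a week after sowing, into a tap-water solution of low osmotic strength. Genotype and growth medium therefore cannot be told apart in any result below. The sample titles and the source names disagree on which knockout line is a and which is b. Letters here are those of the titles, so a statement about a single line would change its letter under the source names. In whole aerial parts, fewer cells of a type and less RNA per cell cannot be told apart.

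OsC3'H1 encodes a cytochrome P450 of the CYP98A family. The enzyme adds a hydroxyl group to the ring of p-coumaroyl esters, a step on the way to the guaiacyl and syringyl units of lignin, the phenolic polymer of plant cell walls. In Arabidopsis, plants that lack the same step are stunted and their lignin is rich in the simplest units. Growing shoots draw on cell division and protein synthesis, which cytokinin and auxin help to set, while defence and nutrient-recycling programmes are usually held low in young unstressed leaves.

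The targeted gene itself, OsC3'H1 (locus Os05g0494000, also known as CYP98A4, on chromosome 5 of IRGSP-1.0 from 24271090 to 24275162), stood at 10.7 FPKM in line a and 12.9 FPKM in line b, against 53.1 FPKM in 12-day wild type. Both knockout values were below the wild-type value, and Cuffdiff called both falls (deposited q = 0.000253 each). The tissue was checked with marker genes. The leaf genes RBCS, RCA, CAB1R and CAB2R were present in all 3 groups, at a summed 2626 FPKM in line a, 2316 in line b and 33162 in 12-day wild type. Of 4 root markers written, 3 could be matched by symbol, with a sum of 7.14 FPKM in line a, 7.78 in line b and 2.44 in 12-day wild type. LSI2 was listed at 0 in all 3 groups and IRT1 stayed under 1 FPKM, so nearly all of this sum was LSI1, a silicon channel of roots, which was called higher in both lines by the deposited q and in neither by the normal test described below. The seed storage gene GLUA2 stood at 2.96 FPKM in line a and 2.87 FPKM in line b, against 3.22 FPKM in 12-day wild type. The part of root tissue in the results was not tested.

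By the deposited q under 0.05, 8033 members (45.9%) were called in line a and 8287 (47.4%) for line b. In line a 3790 (21.7%) were higher and 4243 (24.3%) lower than in 12-day wild type, and in line b 3911 (22.4%) were higher and 4376 (25%) lower. The lines shared a call in the same direction at 7088 members (40.5%), of which 3295 (18.8%) were higher and 3793 (21.7%) lower. Opposite calls were made at 2 members, and 8259 were called in neither line. Both comparisons use the same wild-type libraries, so a shared call is not 2 independent observations. With a normal test on the log2 ratio over the error implied by the deposited test statistic (the log2 ratio divided by the statistic) in place of the deposited q, the counts were 4248 in line a, 4395 in line b and 3815 shared, and where the change also had to reach 2-fold they were 3662, 3841 and 3236. In the authors' deposited table no p is below 5e-05, and 4376 tests in line a and 4554 for line b stand at it.

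The typical member hardly moved. The median log2 ratio was -0.01 in each line, with quartiles of -0.49 and 0.43 in line a and -0.52 and 0.44 in line b. The implied error had a median of 0.33 in line a and 0.34 for line b. An alternative scaling gave each group the same FPKM sum over loci of at least 200 bases, here called equal FPKM sums. Directions given below are relative to the authors' scaling. Under equal FPKM sums every ratio would rise by 0.54 in line a and 0.59 for line b. A single locus that was not called, Os05g0333200, contributed to that shift with 72710 FPKM in line a, 52351 FPKM in line b and 198567 FPKM in 12-day wild type. Without it the shift was 0.40 and 0.42. Of the 3789 shared lower loci with a finite ratio, 3043 stayed below 0 in both lines after the full rescaling.

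Large folds were more numerous among rises than among falls, although the largest called change among single-gene loci was a fall, at Os08g0139700. Leaving out loci listed at 0 and taking the smaller fold of the lines, the shared higher loci had a median of 1.88 (quartiles 1.496 and 3.03) and the shared lower loci a median of 1.90 (quartiles 1.54 and 2.72). At 2-fold or more there were 1457 higher and 1725 lower loci, at 8-fold 220 and 108, at 16-fold 81 and 21, and at 32-fold 30 and 3. These counts come from loci that the call itself selected and are given as a description.

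**Figure D1:**
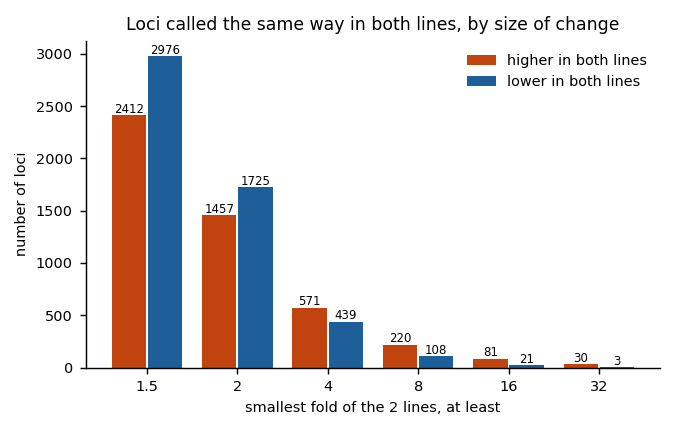
Number of loci called the same way in both knockout lines against 12-day wild type (vertical axis) whose smaller fold of the 2 lines reached each step (horizontal axis), with bars for higher and lower loci. Lower loci were more numerous at 2-fold (1725 against 1457 higher loci) and higher loci at 16-fold (81 against 21 lower loci).

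The direction of the calls differed by expression level. Shared higher loci had a median of 25.3 FPKM in line a and 25.9 FPKM in line b, against 11.4 in 12-day wild type. Shared lower loci had medians of 21.1 and 19.9 FPKM in the lines, against 43.9 in 12-day wild type. Among the 1358 members with a mean of 100 to 1000 FPKM over the 3 groups, 47.9% were shared lower and 19.7% shared higher, while among the 3819 members with a mean of 5 to 10 FPKM the shares were 12.5% and 15.3%. As a part of all FPKM over loci of at least 200 bases, shared higher loci made up 24.5% in line a and 25.7% of the sum in line b, against 7.12% in 12-day wild type. Shared lower loci made up 24.8% and 24.6% in the lines, against 47.2% in 12-day wild type. Without Os05g0333200 the lower loci made up 27.4% and 26.5% in the lines, against 57.1% in 12-day wild type. The higher loci then made up 26.9% and 27.6%, against 8.62%. The direction of these differences in medians and sums was fixed by the call that chose the loci, so they are a description. By chromosome, the share of higher loci ran between 15.9% on chromosome 2 and 22.3% on chromosome 10. That of lower loci ran between 19.0% on chromosome 10 and 23.8% on chromosome 3. Differences between chromosomes were not tested.

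**Figure D2:**
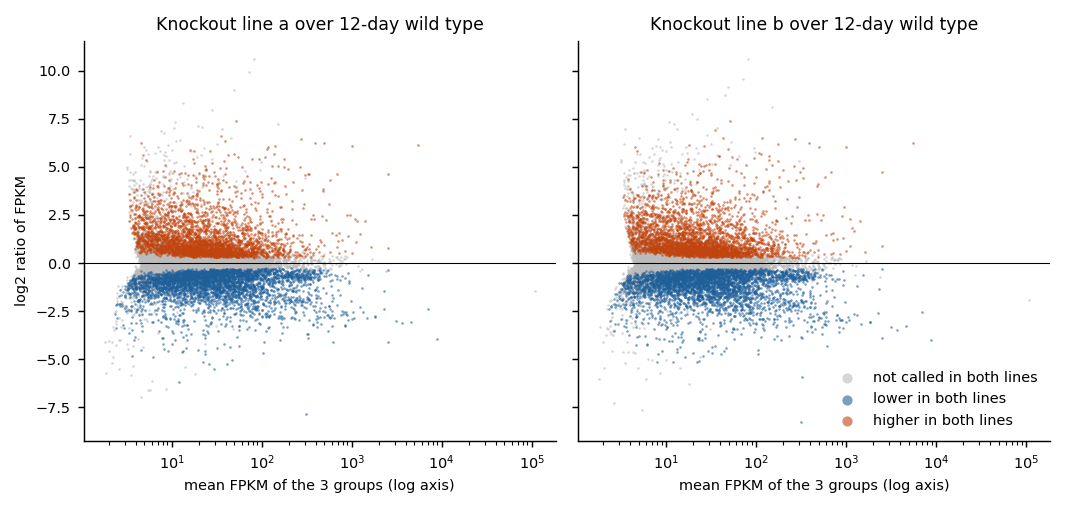
Log2 ratio of each knockout line over 12-day wild type (vertical axis, 1 panel per line) against the mean FPKM of the 3 groups (horizontal log axis) for members of at least 200 bases with finite ratios. Each point is 1 locus, coloured where both lines were called higher or lower, and large rises are more numerous than large falls.

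Symbols could be attached to 508 members, and of these 309 were called the same way in both lines, a larger share than the 40.5% of all members. A list above the share of all members therefore need not stand out among the named genes. The groups below come from lists of such genes, so they cover a small part of the members. Their shares are read against the 18.8% higher and 21.7% lower of all members, and the lists were not picked blind to the data.

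Proteins made in defence held many of the highest places among the named rises. SALT, a mannose-binding lectin induced by salt, stood at 7955 FPKM in line a and 8394 FPKM in line b, against 112 FPKM in 12-day wild type, and was the most abundant called locus of at least 200 bases in the knockouts. All 11 chitinases that could be named among the members were called higher in both lines. Their median log2 ratios were 4.62 in line a and 4.73 for line b. Chib3H-h, a chitinase homologue, stood at 77.8 and 76.5 FPKM in the lines, against 0.463 FPKM in 12-day wild type (log2 7.39 and 7.37, implied error 1.72 each). Cht4 stood at 971 and 1038 FPKM in the lines, against 39.01 FPKM in 12-day wild type.

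Of 8 other defence proteins, SALT among them, 5 were higher and 2 lower in both lines. RBBI3.3, a Bowman-Birk inhibitor of trypsin-like proteases, stood at 53.2 FPKM in line a and 130 FPKM in line b, against 3.01 FPKM in 12-day wild type. Pir7b, an esterase described from rice defence, stood at 56.2 and 40.6 FPKM in the lines, against 2.68 FPKM in 12-day wild type. Both lower members were germin-like proteins. GER5 stood at 457 and 451 FPKM in the lines, against 1196 FPKM in 12-day wild type, and GER8 at 30.5 and 28.6 FPKM, against 71.7 FPKM.

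Lipid transfer proteins, small proteins that carry lipids to the cell surface, reached high levels. LTP stood at 1916 FPKM in line a and 1941 FPKM in line b, against 425 FPKM in 12-day wild type (log2 2.17 and 2.19, implied error 0.21 each). LTP2-A stood at 1240 and 1218 FPKM in the lines, against 222 FPKM in 12-day wild type. These were the shared rises among the 4 members of the list, and none of the 4 was shared lower.

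Genes that sense pathogens and relay the signal were mixed, with 5 of 12 higher and 4 of 12 lower in both lines. CEBIP, which binds chitin at the cell surface, stood at 78.3 and 96.1 FPKM in the lines, against 23.4 FPKM in 12-day wild type. Its partner kinase CERK1 stood at 38.8 and 40.3 FPKM, against 22.6 FPKM in 12-day wild type. MAPK5, a stress-activated kinase, was 4.97-fold higher in line a and 4.39-fold higher in line b, and NPR1, a co-activator of salicylic acid responses, was also called higher (log2 1.23 and 1.25). RAR1, Rac1, LYP4 and RAI1, known from rice immunity as well, were called lower, though none of these 4 falls was called by the normal test.

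Listed transcription factors of stress responses, and the TIFY repressors counted beside them, were largely on the higher side. Among the listed members, the shared calls were 5 of 5 WRKY, 4 of 5 NAC and 6 of 9 TIFY genes, all higher. Only 5 WRKY, 9 NAC and 13 TIFY genes had been written, after the table was opened, so these counts do not describe whole families. Heat stress factors were less uniform, with 3 of 10 higher and 1 lower in both lines. HSFB1 stood at 33.8 FPKM in line a and 31.3 FPKM in line b, against 5.44 FPKM in 12-day wild type, and HSFC2A at 18.1 and 13.3 FPKM, against 2.32 FPKM. HSFA2D stood at 2.23 and 2.32 FPKM in the lines, against 21.6 FPKM in 12-day wild type (log2 -3.28 and -3.22, implied errors 0.80 and 0.72). The knockout values of HSFA2D were thus far below the wild-type value, while those of HSFB1 and HSFC2A were several times higher than it.

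Hormone genes changed in a pattern that differed by hormone. Cytokinin promotes cell division and switches on type-A response regulators, which in turn dampen the signal. All 6 response regulators that could be named among the members (RR1, RR2, RR4, RR6, RR9 and RR10) were called lower in both lines. RR2 stood at 15.5 FPKM in line a and 14.98 FPKM in line b, against 84.7 FPKM in 12-day wild type (log2 -2.45 and -2.50, implied error 0.27 each). RR1 stood at 3.01 and 4.61 FPKM in the lines, against 25.9 FPKM in 12-day wild type. The cytokinin oxidases, which break the hormone down, split: CKX3 was lower (2.61 and 1.90 FPKM in the lines, 7.81 FPKM in 12-day wild type) and CKX11 higher (19.0 and 16.2 FPKM in the lines, 5.97 FPKM in 12-day wild type). With equal FPKM sums the list's median log2 ratio was -1.13 in line a and -1.55 for line b, beside -1.66 and -2.14 on the authors' scaling.

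Aux/IAA genes encode repressors of auxin responses and are themselves switched on by auxin. They were listed together with GH3 and PIN genes, and of the 19 members of that list, 9 were lower and 3 higher in both lines. IAA14 stood at 8.69 and 9.29 FPKM in the lines, against 23.6 FPKM in 12-day wild type, and IAA16 at 6.19 and 6.94 FPKM, against 1.26 FPKM, a rise not called by the normal test. The list's median log2 ratio was -0.41 in line a and -0.33 for line b, but 0.13 and 0.27 with equal FPKM sums, so no direction is drawn for the list.

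Of 10 genes of gibberellin, brassinosteroid and strigolactone action, 3 were higher, 1 lower and 6 called in neither line, with median log2 ratios of -0.00130 and 0.06. The 3 rises were D14, D3 and GID1, and the fall was KS1, an enzyme of gibberellin synthesis, which the normal test called in line b only. D14, the strigolactone receptor, stood at 188 FPKM in line a and 189 FPKM in line b, against 60.6 FPKM in 12-day wild type (log2 1.63 and 1.64, implied error 0.21 each). D3, the F-box protein that works with D14, stood at 28.3 and 30.7 FPKM in the lines, against 14.5 FPKM in 12-day wild type. GID1, the gibberellin receptor, stood at 98.2 and 103 FPKM in the lines, against 30.2 FPKM in 12-day wild type. The ethylene receptors ETR2 and ERS1 and the ethylene signalling factor EIL1 made 3 shared rises among 6 ethylene genes, and abscisic acid genes gave 4 among 9, neither list holding a shared fall.

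Transport of metals, ions and other solutes was a further group. Of 27 genes of iron, zinc and copper handling, 14 were higher and 3 lower in both lines, with median log2 ratios of 0.75 and 0.73. NRAMP1, a metal transporter, stood at 37.9 FPKM in line a and 50.4 FPKM in line b, against 1.42 FPKM in 12-day wild type. The zinc-iron transporter genes ZIP8 (31.5 and 33.3 FPKM in the lines, 1.77 FPKM in 12-day wild type) and ZIP10 (46.8 and 58.3 FPKM in the lines, 11.8 FPKM in 12-day wild type) were also called. NAAT1, an enzyme of phytosiderophore synthesis, stood at 24.8 and 29.8 FPKM in the lines, against 2.12 FPKM in 12-day wild type. IRO3, a regulator of iron responses, was higher (log2 2.21 and 2.49). VIT1, which loads iron and zinc into the vacuole, stood at 6.83 and 6.57 FPKM in the lines, against 23.4 FPKM in 12-day wild type, and NRAMP5, a manganese transporter, was also lower.

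Metallothioneins, cysteine-rich proteins that bind metals, moved in opposite directions by member. MT1A stood at 1478 FPKM in line a and 1505 FPKM in line b, against 306 FPKM in 12-day wild type. MT2A stood at 1717 and 1366 FPKM in the lines, against 383 FPKM, and MT1B at 222 and 308 FPKM, against 13.6 FPKM. MT2C stood at 673 and 761 FPKM in the lines, against 1383 FPKM in 12-day wild type. MT2B was called lower as well (log2 -0.53 and -0.43), and its ratio in both lines is above 0 with equal FPKM sums.

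Among other transporters, HAK1, a high-affinity potassium transporter, stood at 33.1 FPKM in line a and 36.5 FPKM in line b, against 1.43 FPKM in 12-day wild type (log2 4.53 and 4.67, implied error 0.73 in line a). TPKA, a potassium channel of the vacuole in a merged locus, stood at 12.8 and 13.6 FPKM in the lines, against 48.1 FPKM in 12-day wild type. PT8, a phosphate transporter, stood at 103 and 115 FPKM in the lines, against 12.4 FPKM in 12-day wild type, whereas PT4, another, was called lower (0.634 and 1.99 FPKM in the lines, 9.19 FPKM in 12-day wild type). Potassium and sodium transport genes gave 2 higher and 2 lower of 8, and phosphate genes 3 higher and 4 lower of 10. Of 8 ABC transporters of the pleiotropic drug resistance type, 5 were higher and 1 lower in both lines. Among the called ones ABCG36 had the largest fold over wild type, at 26.0 and 29.6 FPKM in the lines, against 2.296 FPKM in 12-day wild type, and ABCG42 was the lower one. Sugar transporters gave 6 higher and 3 lower of 13. SWEET15, a sucrose exporter known from senescing tissue in Arabidopsis, stood at 14.2 and 13.9 FPKM in the lines, against 1.36 FPKM in 12-day wild type. SWEET2B stood at 18.4 and 21.4 FPKM in the lines, against 77.6 FPKM in 12-day wild type.

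Enzymes that break down lipids, amino acids and purines were mostly higher, at 2 of 3 members of the glyoxylate cycle and beta-oxidation and 3 of 4 of amino acid and purine breakdown, with 1 of these 4 lower. MS, malate synthase of the glyoxylate cycle, stood at 32.9 FPKM in line a and 36.4 FPKM in line b, against 1.01 FPKM in 12-day wild type (log2 5.03 and 5.17, implied error 1.01 in line a). MFP, a multifunctional enzyme of fatty acid beta-oxidation, stood at 148 and 149 FPKM in the lines, against 56.7 FPKM in 12-day wild type. IVD and MCCA, which degrade leucine, and XDH, xanthine dehydrogenase of purine breakdown, were called higher as well. IVD stood at 116 and 125 FPKM in the lines, against 38.1 FPKM in 12-day wild type. ALN, allantoinase, a later step of purine breakdown, was called lower.

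Genes linked to senescence and protein turnover gave 4 shared rises among 6 members and no shared fall. OC-I, oryzacystatin, which inhibits cysteine proteases, stood at 629 FPKM in line a and 675 FPKM in line b, against 115 FPKM in 12-day wild type, and OC-II at 190 and 176 FPKM, against 66.7 FPKM. The other shared rises were SGR, which starts chlorophyll breakdown (61.7 and 73.8 FPKM in the lines, 10.7 FPKM in 12-day wild type), and the vacuolar processing enzyme gene VPE1, which the normal test did not call. Enzymes of proline and polyamine synthesis gave 4 higher and 1 lower of 8. ADC2, an arginine decarboxylase, stood at 54.1 and 37.2 FPKM in the lines, against 4.05 FPKM in 12-day wild type, and its relative ADC1 at 52.1 and 59.8 FPKM, against 92.1 FPKM, a fall not called by the normal test. OAT, ornithine aminotransferase, was higher (log2 1.56 and 1.60).

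Carbon and redox genes held single large changes within mixed lists. Antioxidant enzymes and glutathione transferases gave 6 higher and 5 lower of 16, and invertases and sucrose synthases 3 higher and 1 lower of 8. AOX1A, the alternative oxidase that lets mitochondrial electrons bypass part of the respiratory chain, stood at 40.9 FPKM in line a and 33.3 FPKM in line b, against 5.17 FPKM in 12-day wild type. SUS4, a sucrose synthase, stood at 92.1 and 88.4 FPKM in the lines, against 17.901 FPKM in 12-day wild type, while the cell wall invertase gene CIN4 stood at 4.71 and 4.90 FPKM, against 23.24 FPKM. Beta-glucosidases, which release sugars or hormones and defence compounds from glucosides, gave 11 higher and 3 lower of 22. Os4bglu16 stood at 35.7 and 31.99 FPKM in the lines, against 4.94 FPKM in 12-day wild type. GSTU6, a glutathione transferase, was 12.1-fold higher in line a and 10.7-fold higher in line b. CATA, a catalase, stood at 353 and 357 FPKM in the lines, against 128 FPKM in 12-day wild type, whereas APX8, an ascorbate peroxidase of the chloroplast, stood at 55.5 and 58.7 FPKM, against 373 FPKM. CYP87A3, a cytochrome P450, stood at 220 and 228 FPKM in the lines, against 6.63 FPKM in 12-day wild type.

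Genes of protein synthesis and cell division lay on the lower side by smaller margins. Of 14 loci of cytosolic ribosomal proteins, 12 were lower in both lines and none higher, with median log2 ratios of -0.66 in line a and -0.63 for line b. RPS4 stood at 458 and 492 FPKM in the lines, against 859 FPKM in 12-day wild type (log2 -0.91 and -0.80, implied error 0.35 each), and 60SP0 at 409 and 396 FPKM, against 664 FPKM. In line b the fall of RPS4 was not called by the normal test. With equal FPKM sums the ribosomal medians were -0.12 and -0.04. All 4 histone H2B genes that could be named were lower; H2B.1 stood at 285 FPKM in each line, against 672 FPKM in 12-day wild type.

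DNA replication genes gave 12 lower and none higher of 22, and cyclins, their kinases and inhibitors 14 lower and none higher of 25. CYCD3-1, a cyclin that links cytokinin to division in Arabidopsis, stood at 6.65 FPKM in line a and 5.59 FPKM in line b, against 18.6 FPKM in 12-day wild type. NACK, a kinesin needed to build the new cell wall between daughter cells, stood at 7.46 and 7.75 FPKM in the lines, against 19.6 FPKM in 12-day wild type. The median log2 ratio of the cyclin list was -0.74 in line a and -0.58 for line b, and with equal FPKM sums it was -0.20 in line a but 0.01 in line b. Several losses of comparable size did not pass, among them ORC1, a subunit of the origin recognition complex (5.33 and 7.13 FPKM in the lines, 20.5 FPKM in 12-day wild type).

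Other families were counted in the same way. Proteasome subunits gave 4 lower and none higher of 12, and tubulins 3 lower and none higher of 9, and the sign of both medians changes with equal FPKM sums. Expansins, which loosen cell walls, gave 6 higher and none lower of 17. EXPB6 stood at 117 FPKM in line a and 152 FPKM in line b, against 21.6 FPKM in 12-day wild type. Autophagy genes gave 1 higher of 7 and aquaporins 2 higher and 1 lower of 16. With so few loci no difference from the shares of all members is drawn. Of 12 genes often used as references, 2 were higher and 5 lower in both lines, and the sign of their median also changes with equal FPKM sums in both lines. ACT1, an actin, stood at 255 and 258 FPKM in the lines, against 412 FPKM in 12-day wild type. Glyceraldehyde-3-phosphate dehydrogenase genes were split, GAPC1 being called higher (2019 and 1715 FPKM in the lines, 1150 FPKM in 12-day wild type) and GAPC2 lower (682 and 651 FPKM in the lines, 1172 FPKM in 12-day wild type). The normal test did not call the rise of GAPC1 in line b (log2 0.58, implied error 0.27).

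**Figure D3:**
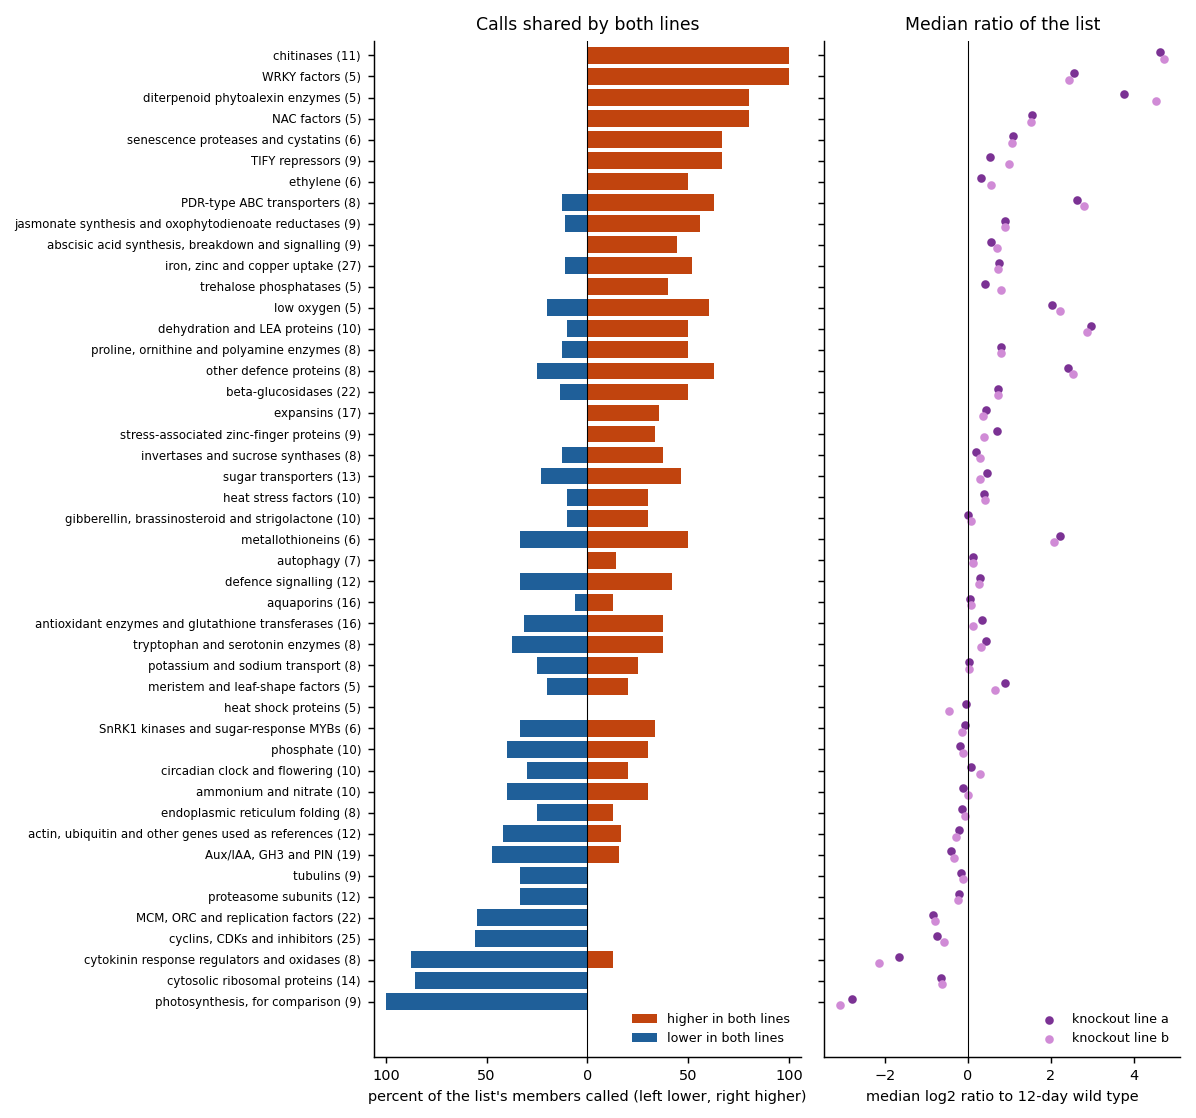
Gene lists with at least 5 members, with the number of members in brackets: the left panel gives the percent of members called lower (left of 0) or higher (right of 0) in both knockout lines, and the right panel the median log2 ratio of each line to 12-day wild type. Chitinases and WRKY factors are at the top with every listed member higher, and ribosomal proteins, cytokinin genes and the photosynthesis genes shown for comparison are at the bottom.

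Lists of ammonium and nitrate genes and of the circadian clock and flowering were mixed, with 3 higher and 4 lower of 10 in the first and 2 higher and 3 lower of 10 in the other. Single members had large falls. NIA1, a nitrate reductase, stood at 2.65 FPKM in line a and 4.18 FPKM in line b, against 63.2 FPKM in 12-day wild type. LHY, a morning component of the circadian clock, stood at 137 and 92.1 FPKM in the lines, against 515 FPKM in 12-day wild type, whereas PCL1, another clock gene, was higher (log2 1.34 and 2.11). Lsi6, a silicon channel of leaves, stood at 9.35 and 9.79 FPKM in the lines, against 28.5 FPKM in 12-day wild type, opposite in direction to the root channel LSI1. ASA1, an anthranilate synthase subunit of tryptophan synthesis, was lower (log2 -1.32 and -1.37). Its list of tryptophan and serotonin enzymes gave 3 higher and 3 lower of 8.

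**Figure D4:**
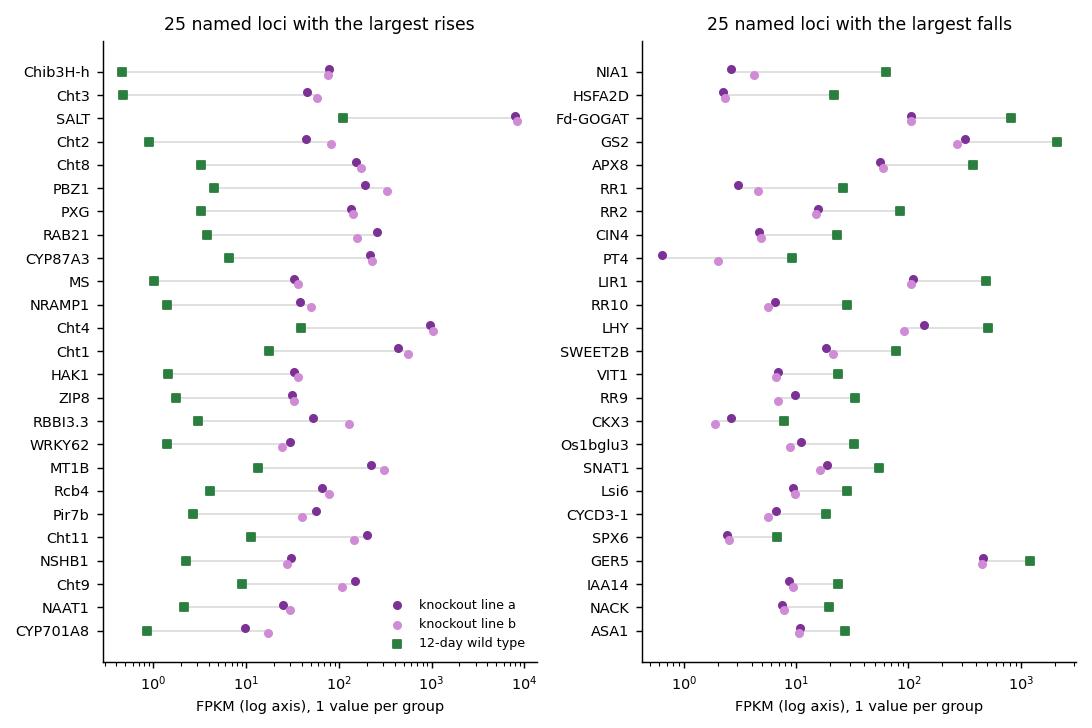
FPKM (horizontal log axis, 1 value per group, no replicate error available) of the 25 named loci with the largest rises and the 25 with the largest falls, with circles for knockout lines a and b and squares for 12-day wild type. Both knockout values lie on the same side of the wild-type value at every locus shown, as the choice of loci requires.

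Some of the largest changes were at loci for which no symbol was at hand. Os08g0139700 stood at 4.03 FPKM in line a and 2.96 FPKM in line b, against 933 FPKM in 12-day wild type (log2 -7.85 and -8.30, implied errors 0.76 and 1.12), and was at 0.866 FPKM in 5-day wild type. Both knockout values were thus far below that of 12-day wild type and somewhat above that of the younger wild type, against which no test was used here. Os01g0940700 stood at 587 and 580 FPKM in the lines, against 7.75 FPKM in 12-day wild type, and Os01g0155800 at 785 and 692 FPKM, against 10.5 FPKM.

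A further 46 loci were listed at 0 in 12-day wild type and stood at 5 FPKM or more in both lines. Of these, 41 were called in both lines, and 33 were also listed at 0 in 5-day wild type. Their median was 9.91 FPKM in line a and 9.27 FPKM in line b. With a symbol, they included NAS1, a nicotianamine synthase of iron uptake (11.2 and 9.39 FPKM), PM19L, a membrane protein linked to dehydration (7.81 and 7.90 FPKM), and KSL4, a diterpene synthase of momilactone synthesis (8.39 and 6.53 FPKM). The reverse held at 6 loci, listed at 0 in both lines and at 6.23 to 30.5 FPKM in 12-day wild type, 4 of them called. No fold is given for these, as the depth behind a value of 0 is unknown.

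Size alone did not decide a call. Of 372 members at least 8-fold higher in both lines, 151 were called in neither, with a median of 0.475 FPKM in 12-day wild type. Of 136 members at least 8-fold lower in both, 17 were called in neither. ASMT1, a methyltransferase of melatonin synthesis, was listed at 121 FPKM in line a and 94.9 FPKM in line b, against 0.123 FPKM in 12-day wild type, and had a deposited q of 0.357 in each line. ABCG45 (27.8 and 37.6 FPKM in the lines, 0.209 FPKM in 12-day wild type) and LOX1.1, a lipoxygenase (14.5 and 17.6 FPKM in the lines, 0.110 FPKM in 12-day wild type), were likewise not called. ICL, isocitrate lyase, which works beside MS in the glyoxylate cycle, stood at 14.1 and 15.7 FPKM in the lines, against 0.550 FPKM in 12-day wild type, with a deposited q of 0.379.

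Some loci with the same call lay side by side. Runs of at least 3 neighbouring members called the same way in both lines numbered 138 for higher loci (457 loci) and 147 for lower loci (486 loci). At least 5 members were held by 7 runs of higher loci and 9 of lower loci. With 18.8% of all members shared higher and 21.7% shared lower, many runs arise without any grouping. Whether the runs exceed that number was not tested, so the counts are a description. On chromosome 7 (IRGSP-1.0), 5 higher members in a row covered 21146046 to 21241273, with median log2 ratios of 4.15 in line a and 4.47 for line b. A second run of 6 higher members lay at 21265863 to 21388269, with medians of 2.41 and 2.44. On chromosome 1, 5 higher members at 1341368 to 1366502 included RBBI3.3 (medians 3.79 and 4.03). The longest run of lower members, 7 loci at 4094567 to 4136521 on chromosome 3, had medians of -0.51 and -0.48. Neighbours of this kind can be near-identical copies that share reads, and how such reads were counted is not given in the sources used here.

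The lines were close to each other but not the same. In the deposited comparison of line b with line a, 805 of 16952 members tested (4.75%) were called, 384 (2.27%) higher and 421 (2.48%) lower in line b. With the normal test on the implied error the count was 25. The median difference at the 805 was 1.43-fold, and 81 reached 2-fold. Of the 7034 loci with a shared call and finite ratios, 432 (6.14%) also differed between the lines, with line b further from 12-day wild type at 295 and line a at 137. Among shared lower loci the split was 139 against 32, and among shared higher loci 156 against 105. Members called in a single line numbered 1197 for line b and 943 for line a, and the deposited test between the lines was passed at 145 and 89 of these.

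By the deposited q, several stress genes differed in size between the lines. The dehydrin RAB21, a protein of drying tissue, stood at 156 FPKM in line b and 260 in line a (12-day wild type 3.84 FPKM), and LEA3, a late embryogenesis abundant protein, at 54.2 and 94.0 FPKM (12-day wild type 6.05 FPKM). PBZ1, a PR10 protein, was higher in line b, at 330 FPKM in line b and 194 in line a (12-day wild type 4.48 FPKM). RBBI3.3, described above, had the largest difference in that direction among loci with a symbol. CYP701A8, a P450 of diterpenoid phytoalexin synthesis, stood at 17.2 FPKM in line b and 9.76 in line a (12-day wild type 0.848 FPKM). The hexose transporter MST3 stood at 55.3 FPKM in line b and 33.7 in line a (12-day wild type 7.84 FPKM). Of the differences in this paragraph, only that of RBBI3.3 (log2 1.29, implied error 0.23) was large enough for the normal test.

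Single loci set the lines further apart. Os01g0537250 stood at 4.13 FPKM in line b and 114 in line a, against 1.41 FPKM in 12-day wild type. Os01g0216000, 1 of the 2 loci with opposite calls, stood at 1.00 FPKM in line b and 10.7 in line a, against 4.64 FPKM in 12-day wild type and 186 FPKM in 5-day wild type. The other, Os06g0728700, stood at 15.6 FPKM in line b and 32.4 in line a, against 24.96 FPKM in 12-day wild type. The fall of Os01g0216000 in line b (log2 -2.21, implied error 1.00) was not called by the normal test.

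**Figure D5:**
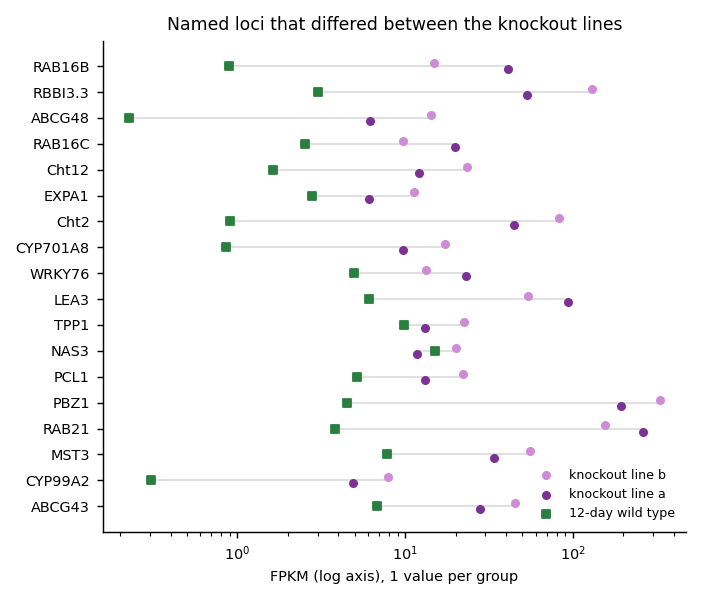
FPKM (horizontal log axis, 1 value per group) of named loci with the largest called differences between the knockout lines, leaving out loci listed at 0 in 12-day wild type. Circles stand for lines b and a and squares for 12-day wild type, and apart from NAS3 both lines lie above the wild type.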

How the data were processed

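Libraries were made from whole aerial parts and sequenced by a commercial provider, per the labels' protocols. Trimmomatic, FastQC, HISAT2, Cufflinks and Cuffdiff were used with genome build IRGSP-1.0, per the submitters' processing notes, with no versions or options. The authors deposited 1 FPKM value per group and merged locus, over 3 replicates, so depth per sample is unknown. The deposited fold changes are log2 ratios. A score, the Cuffdiff test statistic, and a p-value with its q-value were deposited for each test.

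Log2 ratios of knockout over 12-day wild type were recomputed from the deposited FPKM. A locus was called where its test was done and the deposited q was under 0.05. No test was fitted for these groups of 1 value. The implied error is not the scale of the deposited p, which also calls smaller ratios and leaves some large ones uncalled. The normal test used as an alternative was run on simulated ratios drawn with these same implied errors. Such a run checks the code and cannot show whether the errors suit the real data.

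The table names loci only by identifier. Symbols were written from memory for 711 locus pairs after the table had been opened and 53 before, and kept where RefSeq (assembly ASM3414082v1) has the symbol on the same chromosome and in the same order among the listed genes, which left 694 and 41. OsC3'H1 was taken by its locus alone. Names in tandem clusters are the least certain. No descriptions or sequences were used.

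The members and lists were chosen with earlier results of these data known. Genes were named by the target, the 25 largest rises and falls with a symbol, the 10 highest levels in the knockouts and in wild type, the largest differences between lines, loci at 0, and list members. Further list members, among them the hormone receptors, reference genes and uncalled loci, were named after their values were seen. Photosynthesis and lignin genes were left aside. Alternatives were stricter and looser thresholds, other scalings and single-gene loci. Python 3.11.15 with numpy 2.4.6, pandas 2.3.3, scipy 1.17.1 and matplotlib 3.10.9 was used.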

Additional observations from a re-analysis of the deposited data

Results flagged for a closer look

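These results differed between the lines by the deposited Cuffdiff comparison of line b with line a. The normal test called 25 members between the lines in all, and most of the loci listed here were not among them. Values are log2 ratios of line b over line a, positive where line b was higher. Line b was higher at RBBI3.3 (1.29), CYP701A8 (0.82), NAS3 (0.77), PBZ1 (0.77), PCL1 (0.77), MST3 (0.71), NIA1 (0.66), MT1B (0.47), ABCG45 (0.43), NRAMP1 (0.41), EXPB6 (0.38), ZIP10 (0.32) and CEBIP (0.30). Line b was lower at Os01g0537250 (-4.78), Os01g0216000 (-3.42), Os06g0728700 (-1.05), LEA3 (-0.80), RAB21 (-0.74), LHY (-0.57), ADC2 (-0.54), CAB2R (-0.52), HSFC2A (-0.44), RCA (-0.38), ASMT1 (-0.34) and MT2A (-0.33). ABCG45 and ASMT1 were called between the lines though not against 12-day wild type in either line. The line letters follow the sample titles, and the signs turn round if the source names are right.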

How the results depend on the processing

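No paired analysis was possible because the files hold 1 value per group and none per replicate, and for the same reason no replicate could be left out in turn. The numbers of members called in line a, in line b, in both the same way and between the lines were 8033, 8287, 7088 and 805. With at least a 2-fold change they were 3662, 3841, 3236 and 81. With the normal test on the implied error they were 4248, 4395, 3815 and 25. With a minimum of 20 FPKM the numbers in line a and line b were 5309 and 5488, and with q under 0.01 the number between the lines was 353. The other alternatives moved these counts by less than 1.5 times. Equal FPKM sums moved the members' median log2 ratio to 0.53 for line a and 0.59 for line b, and changed the sign of 19 of 92 list medians (46 lists, 2 lines). Some medians that changed sign so had started further from 0 than the typical implied error. They were Aux/IAA, GH3 and PIN in line a (0.13) and, in line b, cyclins, CDKs and inhibitors (0.0132) and heat shock proteins (0.12). With a minimum of 20 FPKM only MADS50 was left of 5 members in the meristem and leaf-shape list, at -0.88 for line a and -1.02 for line b, beside list medians of 0.89 and 0.65. Of 234 named ratios, 29 were no longer called by the normal test and 6 became called (ABCG45, LOX1.1 and ICL, both lines). LSI1, RAR1, Rac1, LYP4, RAI1, IAA16, VPE1 and ADC1 lost the call in both lines. Losses in a single line included GAPC1, RPS4 and Os01g0216000, each in line b. The causes of these changes were not tested. The alternatives for the count between the lines, and the sum without Os05g0333200, were chosen after seeing the data.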
